A study of Mus musculus with 32 samples.

Results

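The comparison described here set 3 RNA-seq libraries of mouse embryonic stem cells (ESCs) that lack a large imprinted microRNA cluster against 3 libraries of their controls, across all genes. These 6 libraries, of 32 in the series, were chosen by their labels: replicates A, B and C of the deletion genotype, Mirg(Delta/+), and replicates A, B and C of the control genotype, Mirg(fl/+). All 6 came from hybrid mouse ESCs at day 0, grown with 10% serum and LIF, the cytokine that holds mouse ESCs in the undifferentiated state, and were sequenced after depletion of ribosomal RNA. The deletion removes miR-379 to miR-410 from the maternal chromosome. The series also holds neurons induced from these cells by doxycycline and TetO-Ngn2 over 10 days (iNs) with the same genotypes, and they are used here only to show where the effect in ESCs differed. The labels do not say whether replicates are separate cultures or clones, so a p-value reflects only how much these libraries vary, which may be technical, and clone and genotype cannot be told apart.

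The cluster lies in the Dlk1-Dio3 domain of chromosome 12, an imprinted region in which protein-coding genes are transcribed from the paternal chromosome and long noncoding RNAs and microRNAs from the maternal one. Meg3, Rian and Mirg are maternal noncoding RNAs, and Mirg overlaps the microRNAs. A microRNA guides Argonaute proteins to messenger RNAs through its seed, the bases at positions 2 to 8, and the bound messenger RNA is repressed. RefSeq placed 36 hairpins of the cluster at chr12:109709060-109743795 (GRCm38.p6), with 71 mature microRNAs. Of these, miR-299b-3p and miR-299b-5p lie on the minus strand and the others on the plus strand.

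The 6 cluster microRNAs with the highest levels in control ESCs, as derived from the mean and fold change in the authors' deposited table of small RNAs with equal group sizes assumed, made up 64.6% of the summed level of the cluster. They are shown because they are what the deletion takes away, with the seed in capitals (RefSeq, GRCm38.p6).
miR-379-5p: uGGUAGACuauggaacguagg
miR-382-5p: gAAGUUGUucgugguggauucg
miR-376b-3p: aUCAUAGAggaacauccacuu
miR-409-3p: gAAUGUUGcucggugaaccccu
miR-300-3p: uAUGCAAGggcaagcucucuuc
miR-411-5p: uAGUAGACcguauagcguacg
The 6 seeds differ from each other. By the authors' deposited table, miR-379-5p alone held 18.4% of the cluster's level and miR-382-5p 12.4%.

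The libraries held 16644144 to 21499106 counts. All 10 ESC markers checked, Pou5f1 among them, were expressed, and their summed level in CPM (counts scaled to a common library size) was 2692 to 2784 CPM in controls and 2444 to 2547 CPM with the deletion. Markers of fibroblasts, which ESCs are often grown on, summed to 104 to 108 CPM in controls and 136 to 147 CPM with the deletion. Of those 16 markers, 5 (Fap, Lum, Meox2, Prrx1 and S100a4) stayed under 1 CPM in every library. Mitochondrial genes held 1.99 to 2.27% of counts in controls and 1.47 to 1.84% with the deletion. Ribosomal-RNA-like and 7S genes held 12.5 to 13.9%. Deletion library A stood apart from the other 5 libraries on the first principal component, which held 39.4% of the variance.

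The targeted transcript was examined first. Mirg (chr12:109734981-109749458) had 932, 672 and 789 counts in control libraries A, B and C and 0 counts in each deletion library. With a floor of 3 counts over the deletion group, it was at least 842-fold lower.

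Few genes changed, and most changes were small. Of 16185 genes tested, 221 (1.37%) rose and 88 (0.544%) fell with the deletion (3 libraries per group, edgeR, adjusted p under 0.05 by the Benjamini-Hochberg method). These are referred to as called. The median size of a called change was 0.39 on the log2 scale, and the median over all genes tested was -0.002. All 309 called genes had no overlap between the 3 control and the 3 deletion libraries. Such a gap was common: 12.5% of all genes tested lay apart with the deletion higher and 11.2% with the deletion lower. The call count rested on every library except deletion A: without control library B, 69 genes were called higher and 22 lower, and without deletion library B, 72 and 18. Without control library A the counts were 108 and 29, without control library C 119 and 36, and without deletion library C 120 and 40.

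The replicate letters were treated as pairs, and a fit with the letter as a block called more genes. With the block, 518 genes rose (3.2%) and 501 fell (3.1%). All 309 genes called without the block were also called with it and in the same direction. The 710 genes called only with the block comprised 297 that were higher and 413 that were lower, with a median size of 0.22 on the log2 scale against 0.39 for the genes called in both fits. The share of calls that were higher was 71.5% without the block and 50.8% with it. Calls of single genes also depended on single libraries. Of 117 called genes followed one by one, 44 stayed called whichever of the 6 libraries was left out: A2m, Acta1, Acta2, Amotl2, Ankrd26, Anxa2, B830012L14Rik, Bmp4, Cnn2, Col1a1, Col5a1, Csf1, Csrp1, Cyr61, Dsp, Dusp4, Ephx2, F5, Fosl2, Gm9661, H19, Krt18, Krt19, Krt8, Krt8-ps, Lefty1, Lefty2, Mcf2, Mirg, mt-Cytb, Myh9, Nes, Peg10, Sfmbt2, Tagln, Tfcp2l1, Thbs1, Tpm1, Trh, Usp26, Vgf, Vim, Zic2 and Zyx. The other called genes named here lost their call without at least 1 library: 69 of the 117 did so without deletion library B, 68 without control library B and 16 without deletion library A.

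In a single set of simulated counts, false calls made up 10.2% of the calls without the block and 13.7% with it, more than the threshold of 0.05 allows. The simulated libraries held no effect of the replicate letter, so they cannot show how the block performs in these libraries. Calls below are those without the block unless it is named.

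**Figure D1:**
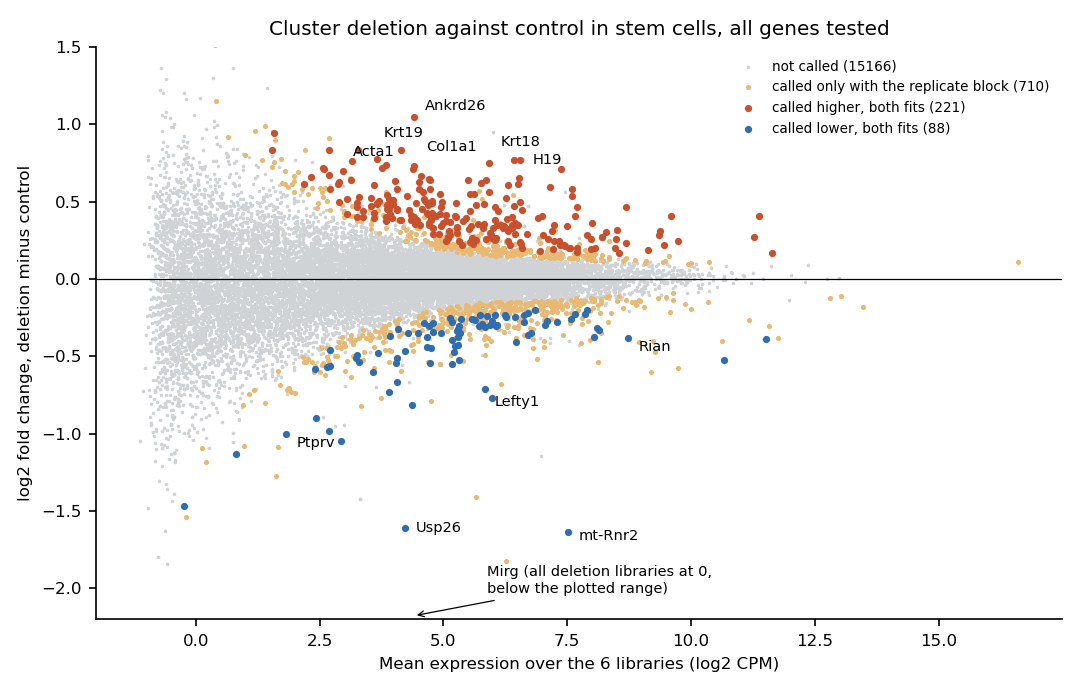
log2 fold change (deletion minus control) against mean expression (log2 CPM) for all genes tested in stem cells; each point is a gene, coloured by its call. The 221 called higher and 88 called lower mostly lie within 1 log2 unit of 0, and the 710 genes called only with the replicate block have a smaller median size (0.22 against 0.39); 14 genes fall beyond the plotted range, of which 2 (Mirg and Gm9661) were called.

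The 15 largest rises came from genes of several kinds. Ankrd26, which encodes an ankyrin-repeat protein of the centriole (chr6:118501300-118562280), had 13.3, 14.5 and 13.7 CPM in controls A, B and C and 28.5, 27.1 and 30.2 CPM with the deletion. The 2 groups were far apart, and the log2 fold change was 1.05 ± 0.07 (SE, n = 3 per group). Only Ankrd26 and Gm9661, described with the imprinted domain, rose at least 2-fold. Krt19, a simple-epithelium keratin, had 12.9, 11.4 and 13.3 CPM in controls against 24.6, 20 and 22.5 CPM (0.84 ± 0.09). Krt18 rose by 0.77 ± 0.05. Krt8-ps, a pseudogene of Krt8 whose reads may come from Krt8, rose by 0.74 ± 0.10. Contractile and muscle genes among the 15 largest rises were Myh7, the slow myosin heavy chain (0.94 ± 0.16), Synpo2l, an actin-associated protein (0.83 ± 0.13), and Acta1, skeletal alpha-actin (0.72 ± 0.07). Matrix genes among them were Bgn, Tinagl1, Col1a1 and Col3a1 (0.72 to 0.83). The remaining members were F5, coagulation factor V (0.83 ± 0.09), Vgf, a neuropeptide precursor (0.77 ± 0.08), H19, an imprinted noncoding RNA (0.77 ± 0.06), and Csf1, the macrophage growth factor (0.73 ± 0.08).

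The largest falls after Mirg were of unrelated function. Usp26, an X-linked deubiquitinase (chrX:51752667-51801233), had 27, 27.2 and 30.2 CPM in controls A, B and C and 8.68, 9.59 and 9.4 CPM with the deletion, a fall by 1.61 ± 0.07. A2m, a protease inhibitor, had 11.1, 10.1 and 9.18 CPM in controls and 4.72, 5.3 and 4.7 CPM with the deletion (a fall by 1.05 ± 0.11). The mitochondrial ribosomal RNA mt-Rnr2 had 371, 148 and 307 CPM in controls and 95.2, 99.2 and 72 CPM with the deletion. Control library B lay well below the other controls. mt-Rnr2 is a target of ribosomal RNA depletion, and the part of that depletion in the result was not tested. Secreted and signalling genes among the 15 largest falls were Hhip, which binds Hedgehog proteins (a fall by 0.99 ± 0.13), Trh, the thyrotropin-releasing hormone precursor (0.77 ± 0.09), and Lefty1 (0.71 ± 0.06). The others were Ptprv, Hormad2, Ephx2, Fat2, Nab2, Panct2, Pnma5 and Mcf2, which fell by 0.55 to 1.01. Falls of at least 2-fold numbered 7: Mirg, mt-Rnr2, Usp26, A2m and Ptprv, and 2 low-expressed genes named here after their values were seen, Trpm1 and Tmem56. Of the 30 genes with the largest changes, 17 kept their call when any 1 of the 6 libraries was left out. The 13 that lost it without at least 1 library were Myh7, Synpo2l, Bgn, Tinagl1, Col3a1, mt-Rnr2, Ptprv, Hhip, Hormad2, Fat2, Nab2, Panct2 and Pnma5.

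Genes of the keratin and actin-fibre system rose together. Keratins 8 and 18 pair into the intermediate filaments of simple epithelia, and actins, myosins, tropomyosins, calponins and focal adhesion proteins build the contractile fibres by which cells pull on their surroundings. Of 30 members tested, 20 were called higher and 0 lower, against 1.37% and 0.544% of all genes, and the median log2 fold change was 0.37 (29 of 30 above 0). This list, like the others below, was chosen with earlier results of these data known, so these shares are description and not an independent test. In 26 members all 3 deletion libraries were above all 3 control libraries, a gap found in 12.5% of all genes tested. Krt8 had 121, 123 and 132 CPM in controls A, B and C and 209, 208 and 199 CPM with the deletion, a rise by 0.71 ± 0.05. Vim, the intermediate filament of mesenchymal cells, had 156, 162 and 159 CPM in controls against 224, 238 and 228 CPM (0.54 ± 0.04).

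Several genes typical of smooth muscle were among those called, while Myl9 and Tpm2 were not. Tagln, an actin cross-linker, had 64.9, 59.6 and 63.9 CPM in controls and 95.2, 95.1 and 96.2 CPM with the deletion (0.61 ± 0.05). Acta2, smooth-muscle alpha-actin, had 71.5, 70.2 and 73.9 CPM against 115, 108 and 106 CPM (0.61 ± 0.05). Tpm1, a tropomyosin, rose by 0.47 ± 0.04, Cnn2, a calponin, by 0.45 ± 0.04, and Zyx, a focal adhesion protein, by 0.48 ± 0.05. The abundant cytoplasmic actins rose less, Actg1 by 0.27 ± 0.04 and Actb by 0.17 ± 0.03. The 10 members not called included Cnn3 (0.08 ± 0.04) and Tagln2 (0.07 ± 0.05), and Krt17 was the only member below 0. Without control library B 12 members were called, and without deletion library B 13. With the block 22 were called.

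**Figure D2:**
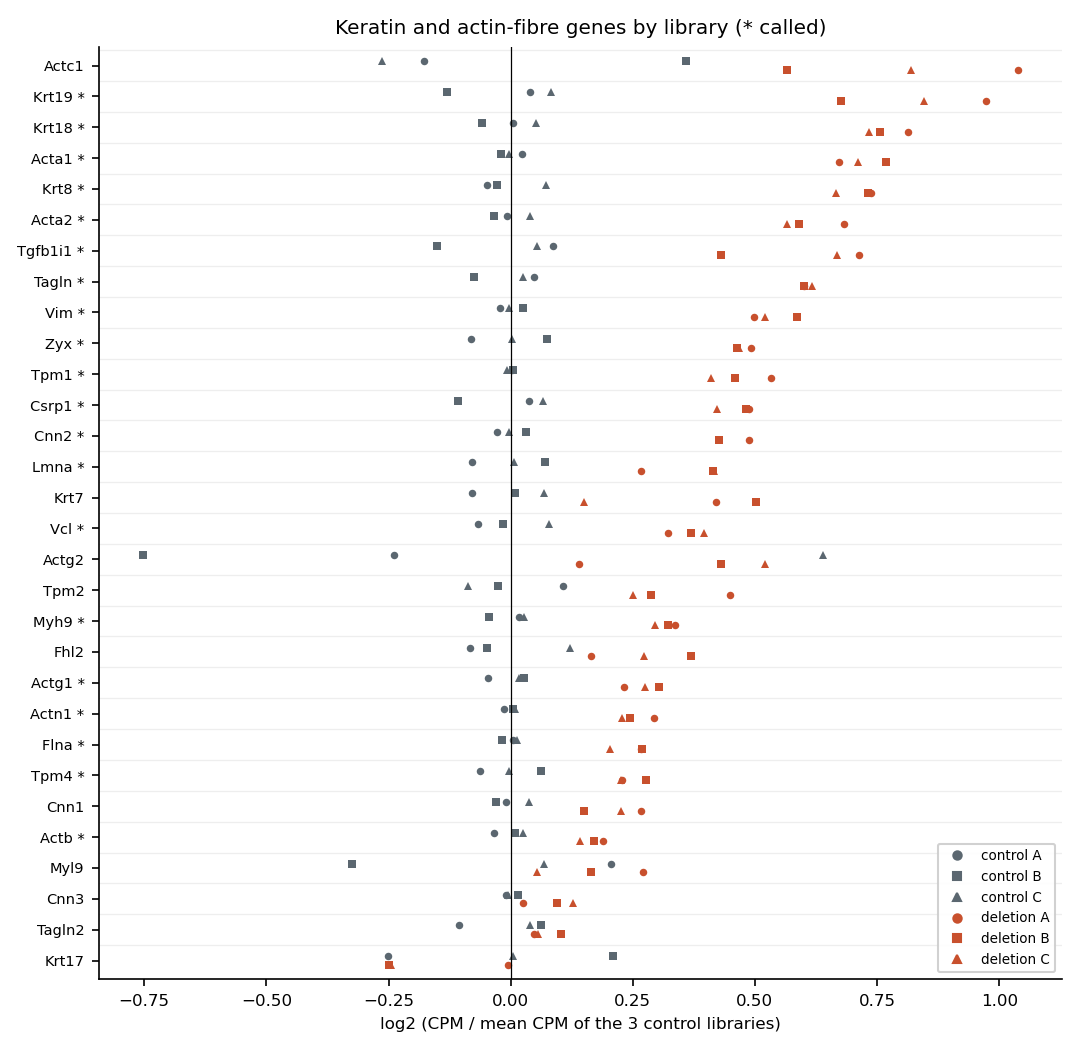
Level of each of the 30 keratin and actin-fibre genes in each library, as log2 of its CPM over the mean CPM of the 3 control libraries (0 line); symbols mark the replicate letter, grey controls and orange deletion libraries, and an asterisk a called gene. In 26 of the 30 genes every deletion library lies to the right of every control library, a gap found in 12.5% of all genes tested.

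Promoters of this list were searched on both strands for the CArG box, the sequence bound by serum response factor (SRF), which controls many actin genes. The window ran from 250 bases before to 50 bases after each RefSeq start. The box was found in 7 of 24 members with a promoter entry (29.2%) and in 1.60% of the 10778 tested genes with one. It occurred in 4 of the 16 called members with an entry and in 3 of the 8 not called, Actc1, Fhl2 and Myl9. The motif GGAATG or its reverse CATTCC, the core bound by TEAD factors, the partners of YAP, was found in 6 of 24 members (25%) against 14.6% of all tested genes. Across all called genes with an entry, the CArG box was in 5.1% of those higher and 4.69% of those lower, and the TEAD core was in 22.3% and 25%. The CArG box was in 1 of 14 YAP and SRF target genes with an entry. The stretches that hold the CArG box in the 4 called members are shown so that the match can be seen, with the box in capitals. Acta1 (chr8:123894794-123894893, minus strand), Cnn2 (chr10:79988499-79988598, plus strand), Actg1 (chr11:120348531-120348630, minus strand) and Vcl (chr14:20929148-20929225, plus strand) are from RefSeq, GRCm38.p6.
Acta1: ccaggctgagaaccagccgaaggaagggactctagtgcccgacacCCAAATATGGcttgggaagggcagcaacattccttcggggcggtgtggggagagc
Cnn2: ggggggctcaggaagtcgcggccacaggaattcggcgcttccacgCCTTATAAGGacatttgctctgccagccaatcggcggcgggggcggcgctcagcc
Actg1: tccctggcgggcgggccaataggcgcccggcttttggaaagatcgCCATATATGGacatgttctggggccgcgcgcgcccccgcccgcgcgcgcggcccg
Vcl: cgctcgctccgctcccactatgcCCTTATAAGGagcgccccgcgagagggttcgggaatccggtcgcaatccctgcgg
The first base of the box lay 73, 56, 90 and 227 bases before the start in Acta1, Cnn2, Actg1 and Vcl.

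Many known target genes of YAP and SRF rose as well. YAP is a cofactor that enters the nucleus when cells spread or are under tension, and SRF responds to free actin. Of 21 members tested, 9 rose and 1, Egr1, fell, against 1.37% and 0.544% of all genes tested, with a median of 0.34. Cyr61, a matricellular protein and common YAP readout, had 38.4, 36.6 and 37.7 CPM in controls A, B and C and 57.3, 54.7 and 53.2 CPM with the deletion (0.55 ± 0.05). Thbs1, thrombospondin 1, had 158, 144 and 165 CPM against 239, 225 and 234 CPM (0.58 ± 0.05). Amotl2 (0.39 ± 0.04), Tgfb2 (0.54 ± 0.07) and Amotl1 (0.35 ± 0.05) also rose. Srf itself was at 0.11 ± 0.05 and was not called. The count of higher members was 3 without control library B, 4 without deletion library B and 5 without control library A or deletion library C.

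Matrix and mesenchymal genes rose in part. Of 30 collagen and matrix genes, 6 were called higher and 0 lower (median 0.17), against 1.37% and 0.544% of all genes tested. Col1a1, the main fibrillar collagen chain, had 47.2, 41 and 46.4 CPM in controls A, B and C and 80.9, 71.9 and 73.5 CPM with the deletion (0.75 ± 0.07). Col5a1 rose by 0.55 ± 0.05, and the basement membrane collagens Col4a1 and Col4a2 by 0.35 ± 0.05 and 0.42 ± 0.06. The most abundant members, Fn1 (0.08 ± 0.03) and Hspg2 (0.12 ± 0.03), were not called. Of 24 epithelial and mesenchymal genes, 5 rose (median 0.15): Vim, the annexins Anxa1 and Anxa2, Lgals1 and S100a6. The epithelial cadherin Cdh1 was at 0.11 ± 0.03 and was not called. Of 11 fibroblast markers tested, 2 rose, Col1a1 and Col3a1, while Fap, Lum, Meox2, Prrx1 and S100a4 stayed under 1 CPM in every library. Without control library B, or without deletion library B, 2 of the 30 matrix genes were called, and without control library A 3. Of the epithelial and mesenchymal genes 2 were called without control library B, and 3 without control library C or deletion library B or C.

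Immediate early genes, which respond within minutes to growth factors, serum or stretch, did not move as 1 group. Of 18 members tested, 5 rose and 1 fell (median 0.25), against 1.37% and 0.544% of all genes tested. Fosl2, an AP-1 subunit, had 19.9, 21.1 and 20.6 CPM in controls A, B and C and 30.9, 32.3 and 32.7 CPM with the deletion (0.64 ± 0.05). Jun, its partner, rose by 0.38 ± 0.06, Myc by 0.44 ± 0.06, Dusp1 by 0.46 ± 0.06 and Klf6 by 0.33 ± 0.05. Egr1 went the other way, from 29.9, 32.6 and 29.6 CPM to 23.9, 25.7 and 22.8 CPM (a fall by 0.34 ± 0.07). Without deletion library B 1 member was called higher, and 3 without deletion library C or any control library.

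Several genes of the naive pluripotency network fell, while Pou5f1 and Sox2 were not called. In the naive state, transcription factors such as Esrrb, Tfcp2l1, Tbx3 and Nanog act downstream of LIF and WNT to support Pou5f1 and Sox2. Of 28 members tested, 6 were called lower, against 0.544% of all genes tested, and 0 higher (median -0.11, 22 of 28 below 0). In 15 members every deletion library was below every control, as in 11.2% of all genes tested. Tfcp2l1 had 314, 303 and 296 CPM in controls A, B and C and 239, 242 and 250 CPM with the deletion (a fall by 0.32 ± 0.04). Nanog had 218, 214 and 222 CPM against 188, 186 and 185 CPM (a fall by 0.23 ± 0.03). Esrrb fell by 0.23 ± 0.04, Tbx3 by 0.35 ± 0.05, Nr0b1 by 0.43 ± 0.08 and Tet2, a DNA demethylase, by 0.26 ± 0.04.

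Pou5f1 had 581, 549 and 543 CPM in controls and 572, 549 and 524 CPM with the deletion, overlapping groups with a log2 fold change of -0.02 ± 0.04. Sall4 was at -0.06 ± 0.03 and was not called. With the block 9 pluripotency genes were called lower, Dppa5a, Sox2 and Tcl1 in addition. Of the 6 calls, 1 remained without control library B, 2 without control library C or deletion library B, and 3 without control library A or deletion library C. Of 18 formative and primed genes, which mark the step that follows the naive state, Zic2 (a fall by 0.47 ± 0.06) and Fgf15 (0.25 ± 0.05) fell and 0 rose. With the block 2 rose and 5 fell. Over all genes tested, the shares higher and lower were 1.37% and 0.544% without the block and 3.2% and 3.1% with it.

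**Figure D3:**
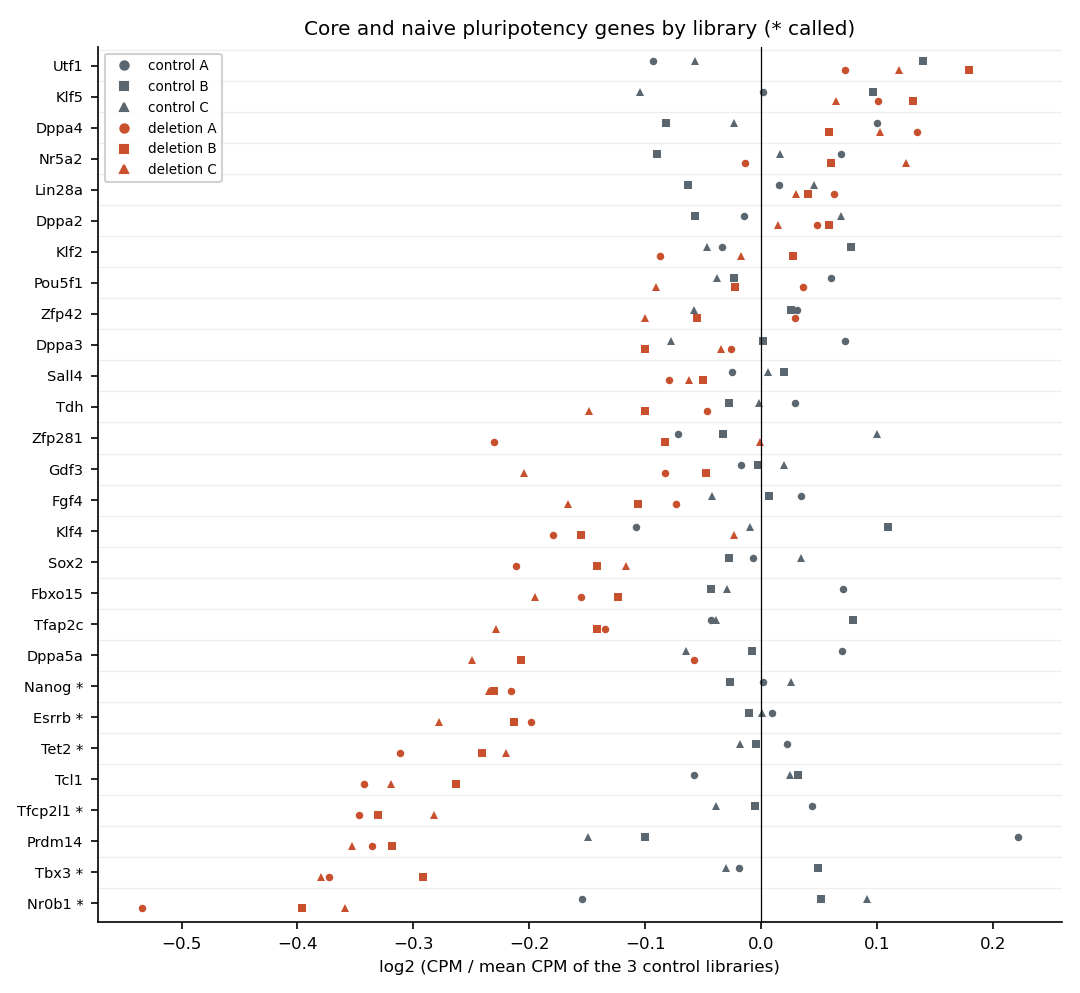
Level of each of the 28 core and naive pluripotency genes in each library, as log2 of its CPM over the mean CPM of the 3 control libraries (0 line), drawn as for the keratin and actin-fibre genes. The 6 called genes (asterisks) lie in the lower part with every deletion library left of every control, Tcl1, which was not called, lies among them, and Pou5f1 lies near 0.

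Signalling genes gave few calls, among them both Lefty genes. The shares to set beside them are 1.37% higher and 0.544% lower over all genes tested, or 3.2% and 3.1% with the block. Lefty1 and Lefty2 are secreted inhibitors and direct targets of Nodal and Activin signalling. Lefty1 had 75.7, 70.8 and 65.2 CPM in controls A, B and C and 43.7, 42.5 and 43.1 CPM with the deletion (a fall by 0.71 ± 0.06). Lefty2 had 100.3, 101.8 and 98.5 CPM against 73.1, 74.9 and 79.1 CPM (a fall by 0.40 ± 0.05). Without the block the other 19 of 21 Nodal and Activin genes were not called, among them the co-receptor gene Tdgf1 (-0.01 ± 0.03). With the block 3 were lower and 1 higher. Bmp4 rose by 0.63 ± 0.08, the only one of 15 BMP genes called without the block, and Bmp2 and Id1 made 3 higher with it. Dusp4, an ERK phosphatase, had 48.4, 46.9 and 46.6 CPM in controls against 65.7, 66.4 and 66.4 CPM (0.49 ± 0.04), and Spry4, another feedback inhibitor of ERK, rose by 0.25 ± 0.05. In the FGF-ERK list 2 of 18 rose and 1 fell, and with the block 5 rose and 1 fell. Among 19 WNT pathway genes Axin2, a target of the pathway, rose (0.38 ± 0.07), and the receptor gene Fzd5 and the inhibitor gene Sfrp1 fell (by 0.23 ± 0.04 and 0.46 ± 0.09). With the block 2 WNT pathway genes were higher and 3 lower. Pim1 (0.29 ± 0.04) was the only one of 15 LIF-STAT3 targets called without the block, and with it Gbx2 was the second.

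Metabolic genes moved little. In the cholesterol synthesis pathway 3 of 23 genes rose, among them Fdps, which makes farnesyl pyrophosphate (0.29 ± 0.05), with 21 of 23 above 0 and a median of 0.16. With the block 8 rose. Over all genes tested, 1.37% rose and 0.544% fell without the block, and 3.2% rose and 3.1% fell with it. By edgeR 0 of 23 were called without control library A, B or C or without deletion library B, and 1 without deletion library C. Of the stearoyl-CoA desaturases, Scd2 rose by 0.29 ± 0.04 and Scd1 by 0.25 ± 0.05. In the list of glycolysis and hypoxia genes Bnip3 (a fall by 0.53 ± 0.07), Egln3 (0.54 ± 0.09) and Txnip (0.37 ± 0.05) fell, the glucose transporter gene Slc2a1 rose (0.26 ± 0.03), and Gapdh (0.00 ± 0.04) was not called. Of 35 cytosolic ribosomal protein genes, 32 nuclear respiratory chain genes, 24 ATF4 target genes, 22 histone genes and 21 microRNA pathway genes, 0 were called by edgeR without the block, and 1 ATF4 target gene in each direction and 1 histone gene, lower, with it.

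Most messenger RNAs encoded by mitochondrial DNA were called lower only with the block. All 13 protein-coding members had log2 fold changes below 0 (median -0.40). mt-Cytb, the cytochrome b subunit, had 3263, 3422.5 and 3219 CPM in controls A, B and C and 2480.5, 2483 and 2612 CPM with the deletion (a fall by 0.39 ± 0.04) and was the only 1 of 13 called without the block. With the block 10 of 13 were called lower, among them mt-Nd3, mt-Nd5 and mt-Co3, against 3.1% of all genes tested. The share of mitochondrial counts moved in the same direction, from 1.99 to 2.27% in controls to 1.47 to 1.84% with the deletion. The groups of mt-Co1, the most abundant member, overlapped (-0.12 ± 0.09). Without deletion library A 4 members were called, 3 without deletion library C and 2 without control library B.

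**Figure D4:**
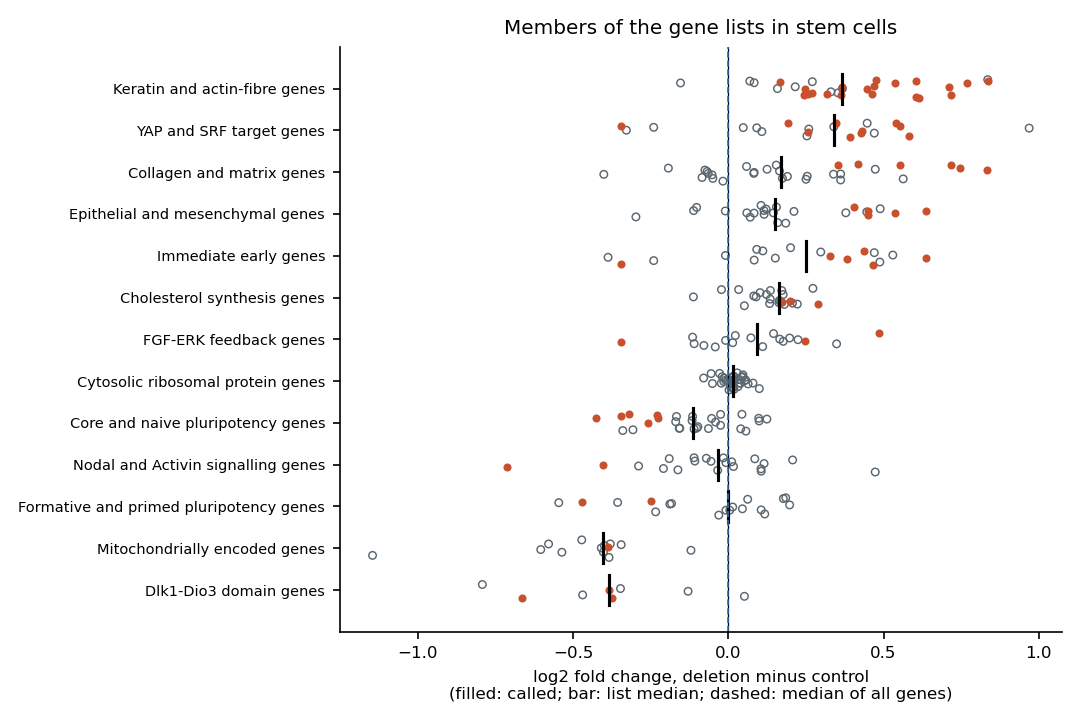
log2 fold change (deletion minus control) of every tested member of 13 gene lists in stem cells; each point is a gene, filled where called, with the list's median as a bar and the median of all genes as a dashed line; Mirg is left out of the plot. The keratin and actin-fibre list is shifted to the right as a whole (median 0.37), ribosomal protein genes lie near 0, and the pluripotency, mitochondrial and Dlk1-Dio3 lists lie to the left.

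Beside the deleted interval, maternal noncoding transcripts fell. Of 9 Dlk1-Dio3 genes tested, 4 were called lower, with Mirg, and 0 higher, against 0.544% and 1.37% of all genes tested. Meg3 (chr12:109540996-109571729) had 320, 281 and 292 CPM in controls A, B and C and 238, 225 and 226 CPM with the deletion, with no overlap between the groups. Rian (chr12:109603945-109661716), which hosts small nucleolar RNAs, had 450, 485 and 505 CPM against 326, 391 and 387 CPM. Both fell by 0.38 (SE 0.05 and 0.07). B830012L14Rik, a noncoding transcript of the domain, had 19.8, 20.7 and 21.1 CPM in controls and 12.5, 13 and 13.4 CPM with the deletion (a fall by 0.66 ± 0.06). The call of Meg3 was lost without deletion library B (edgeR adjusted p = 0.0692) and that of Rian without any library but deletion A (adjusted p of 0.0605 to 0.164 by the same edgeR test). Without deletion library B 2 of the 9 domain genes were called. With the block both Meg3 and Rian were called. With all 12 libraries in 1 fit Meg3 also lost its call. In the authors' deposited table Meg3 was not called (DESeq2 adjusted p = 0.124), while Rian was.

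The paternally expressed genes Dlk1 (-0.35 ± 0.12) and Dio3 (-0.79 ± 0.36), and the flanking Begain (-0.47 ± 0.27), Ppp2r5c (-0.13 ± 0.05) and Wdr25 (0.05 ± 0.12), were not called with or without the block. Rtl1 and Dio3os had at most 10 and 5 counts in any ESC library and were not tested. Within 1 Mb of the microRNA interval 17 genes were tested, and the only one called higher was Gm9661, a gene model of unstated function named here after its values were seen. Gm9661 (ENSMUSG00000113711.1, chr12:109826969-109828149) starts 83174 bases beyond the interval. It had 3, 0 and 1 counts in control libraries A, B and C and 35, 32 and 33 counts with the deletion (edgeR adjusted p = 0.0026). Read positions and strand are not in these counts, so transcription that starts elsewhere and runs through Gm9661, across the deletion junction for example, cannot be told apart from its own.

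Imprinted genes elsewhere moved in both directions. H19, maternally expressed, had 73.3, 63.8 and 69.7 CPM in controls A, B and C and 121, 113 and 119 CPM with the deletion (0.77 ± 0.06). Its paternally expressed neighbour Igf2, a growth factor gene, had 20.7, 19.3 and 18.4 CPM against 14.3, 11.8 and 13.9 CPM (a fall by 0.55 ± 0.09). Peg10, a retrotransposon-derived gene of the placenta, had 2228, 2286 and 2318 CPM in controls and 2923, 3022 and 3129.6 CPM with the deletion (0.41 ± 0.04). Sfmbt2 rose by 0.30 ± 0.03 and Inpp5f fell by 0.26 ± 0.05. In all, 2 of 29 paternally expressed genes rose and 2 fell, and of 22 maternally expressed genes 1 rose and 2, Meg3 and Rian, fell. Of all genes tested, 1.37% rose and 0.544% fell. The median log2 fold change was near 0 in both lists, at -0.02 for paternally and -0.04 for maternally expressed genes.

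Genes with Ago2 peaks matched to cluster microRNAs gave calls in both directions and had a median near 0. The authors' deposited Ago2 CLIP peaks, from induced neurons and not from ESCs, included 997 sites matched to cluster microRNAs, in 636 genes. Of the 609 of these genes tested in ESCs, 18 rose (2.96%) and 6 fell (0.985%), with a median log2 fold change of -0.015. Genes with other peaks only numbered 3500, of which 62 rose (1.77%) and 13 fell (0.371%), with a median of 0.007. With the block 44 of the matched genes rose (7.22%) and 42 fell (6.9%), against 152 (4.34%) and 127 (3.63%) of the genes with other peaks only. Of 230 matched genes tested with a peak of -log10 p at least 2 and log2 fold at least 1, 6 rose (2.61%) and 5 fell (2.17%). Of 325 genes with other peaks only at the same cut, 13 rose (4%) and 3 fell (0.923%). The differences between these shares were not tested. The matched genes that rose most were Emp2 (0.62 ± 0.12), Efna5 (0.42 ± 0.08), Peg10 (0.41 ± 0.04) and Amotl2 (0.39 ± 0.04), and those that fell were Igf2, Sfrp1, Txnip, Tbx3, Baz2b and Tet2. The highest -log10 p of a matched peak was 0.0035 in Emp2, 1.35 in Efna5, 0.65 in Peg10 and 3.46 in Amotl2. Among the genes that fell it was 12.99 in Txnip, 4.05 in Tet2, 3.88 in Igf2, 2.21 in Baz2b, 2.12 in Tbx3 and 0.34 in Sfrp1. Emp2, Efna5 and Baz2b were named after their values were seen.

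For many genes the effect in ESCs differed from that in neurons. In iNs 25.6% of 16028 tested genes were called between the genotypes, and the difference between the effects was called for 13.5% of the genes tested (edgeR interaction test on all 12 libraries, in which the 2 comparisons share no library). Of the 221 genes higher in ESCs, the difference was called for 138, in 128 with the effect in iNs lower. Of the 88 genes lower in ESCs, it was called for 39, in 31 with the effect in iNs higher. These genes were selected by their effect in ESCs, which the difference subtracts. That selection alone favours a difference of the opposite sign, so the split by sign cannot be read by itself. In the keratin and actin-fibre list the difference was called for 20 of 30 genes, in 16 with the effect in iNs lower. Vim rose in ESCs and fell in iNs (-0.45 ± 0.05), a difference of -1.01 ± 0.06. Dusp4 fell in iNs by 0.95 ± 0.08 and rose in ESCs. All 21 called differences among cholesterol synthesis genes had the lower effect in iNs, where 21 of 22 fell.

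Some changes were common to both cell types. Of the 190 genes higher in ESCs and tested in iNs, 36 were also higher in iNs and 53 were lower. Of all 16028 genes tested in iNs, 25.6% were called in either direction. That share was not split into higher and lower. The counts of genes called the same way in both cell types therefore cannot show more overlap than among all genes. Ankrd26 rose by 1.33 ± 0.10 in iNs, and its difference between cell types was not called. H19 rose by 1.90 ± 0.17 in iNs, more than in ESCs by a called difference, and Krt18 rose by 1.34 ± 0.27, with no called difference. Both were low in control iNs, with means of 3.59 CPM for H19 and 1.26 CPM for Krt18. Of the 71 genes lower in ESCs and tested in iNs, 24 were lower in iNs too, among them Usp26 (a fall by 2.01 ± 0.25), and 15 were higher, among them Meg3, Rian and B830012L14Rik.

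**Figure D5:**
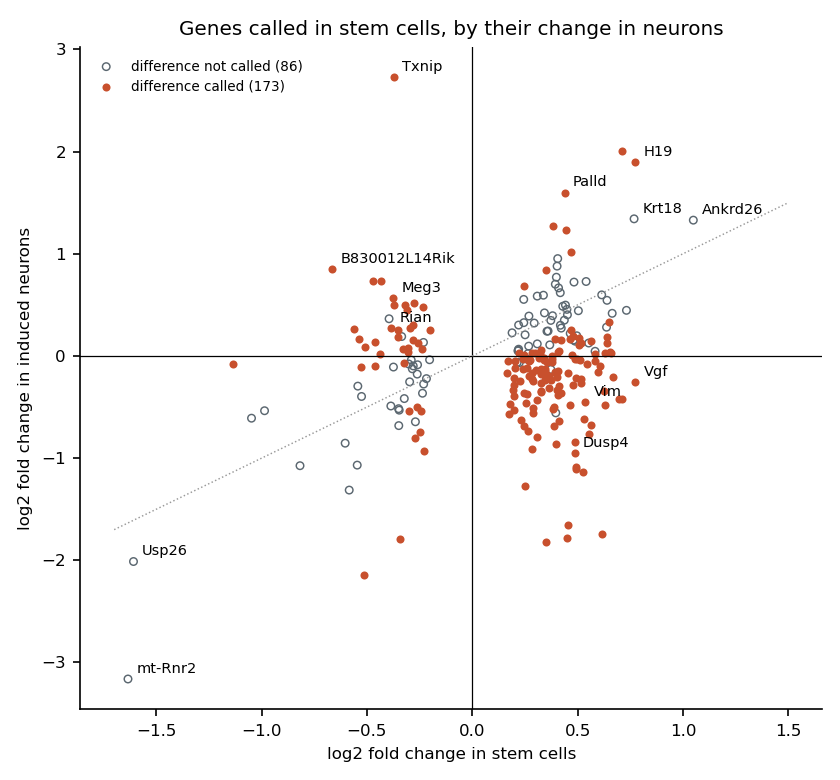
log2 fold change in induced neurons against that in stem cells for the 259 genes called in stem cells and tested in both, without Mirg and Gm9661; filled points mark a called difference between the 2 effects (173 genes), open points none (86), and the dotted line equal effects. Most genes higher in stem cells lie below the dotted line, while Ankrd26 and Usp26 lie close to it. The genes were selected by their effect in stem cells, which alone favours a position below the line for those higher there.

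The authors' deposited table of the same comparison listed 14755 genes, of which 357 were higher and 142 lower at an adjusted p under 0.05. Of the 302 genes called here that the authors' deposited table lists, 268 were called there as well, all in the same direction. Meg3, Myh7, Bgn and Pnma5 were among those not called there. By chromosome, the median log2 fold change ranged from -0.03 to 0.03 over the autosomes and the X and Y chromosomes.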

How the data were processed

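RNA-seq files held, per the file headers, the expected counts, posterior mean counts and TPM that RSEM gives per gene, as the authors deposited them. The submitters' processing notes name RSEM 1.2.30, STAR 2.4.1d and cutadapt 1.4.2, along with SAMtools, DESeq2 and build mm10. The annotation release and strand setting are not given in the sources used here, so overlapping, antisense and near-identical genes are uncertain. From the authors' deposited tables of comparisons came the mean normalised count of a gene (a signal value), its adjusted p-value and its log2 fold change. For each CLIP peak the authors deposited a −log10 p and a log2 fold over the untagged samples, with replicates not kept apart.

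Rounded expected counts were fitted in edgeR 4.0.16 (R 4.3.3) by the quasi-likelihood method after TMM scaling, on genes kept by filterByExpr at its minimum count of 10, with Benjamini-Hochberg adjustment over all of them and a threshold of 0.05. SE is the size of the log2 fold change divided by the square root of F, and CPM uses scaled library sizes. In simulated counts the median sizes put in were recovered, while false calls exceeded the threshold's share in each fit. No effect of the replicate letter was simulated. Deviations from the group means correlated between control and deletion libraries that share a letter (r = 0.548 for A, 0.176 for B and 0.292 for C, across 12886 genes). Each r exceeded 0.1, and the letters were therefore treated as pairs. Control B correlated slightly more with deletion C (0.196), and control C with deletion B also exceeded 0.1 (0.107). The letters B and C were thus not clearly separated, and the labels do not say what a letter marks.

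The comparison, the 44 gene lists, the tests and the alternatives were chosen with earlier results of these data known. Genes named are those of the Dlk1-Dio3 list, the 15 largest rises and falls among genes whose log2 CPM averages 1 or more, whose groups do not overlap and whose symbol is not of the Gm or Rik kind, and up to 5 called and 2 other members per list. Some further members, and genes marked so, were named after their values were seen. Symbols were read for 52435 of 52636 gene entries. Alternatives were the block, DESeq2 1.42.0 and its size factors, no filter, all 12 libraries in 1 fit, posterior mean counts, a fit without 7S, ribosomal-RNA-like and mitochondrial genes, a 2-fold minimum and leaving out each library. Small RNA counts per library were not used here, and the values of some genes are not reported here.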

Additional observations from a re-analysis of the deposited data

Results flagged for a closer look

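Among the genes with the largest changes in ESCs and the genes of the imprinted domain, 7 had an effect of the deletion that differed between iNs and ESCs by the edgeR interaction test on 12 libraries, at an adjusted p under 0.05. The difference, as the log2 effect in iNs minus that in ESCs, was negative for Vgf (-1.05) and Dlk1 (-0.95). Vgf rose in ESCs and fell in iNs, and Dlk1 fell in iNs and was not called in ESCs. The difference was positive for Rian (0.64), Meg3 (0.92) and B830012L14Rik (1.49), all 3 lower in ESCs and higher in iNs. It was also positive for H19 (1.10), which rose in both, and for Krt19 (1.64), which rose in ESCs and was not tested alone in iNs. The other 27 of the 30 largest changes gave no called difference, which does not show that their effects were equal.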

How the results depend on the processing

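All 309 calls were made again with the block, in the same direction, and 0 of 117 called genes followed one by one changed sign under any alternative. Of these 117, 43 kept their call in every alternative fit that tested them. The 2-fold minimum is not counted here, as most of the 43 changed by less. Krt8, Krt18, Vim, Acta2, Tagln, Lefty1, Lefty2, H19, Peg10, Tfcp2l1 and Usp26 were among the 43. Higher and lower calls were 221 and 88 in the fit reported, 518 and 501 with the replicate block, 2 and 7 at a 2-fold minimum, 69 to 211 and 18 to 104 with 1 library left out, and lower calls were 187 with no filter. Without the filter 62.9% of calls were higher and with the block 50.8%, against 71.5%. Leave-one-out ranges of called members were 12 to 19 for keratin and actin-fibre genes, 3 to 8 for YAP and SRF targets, 2 to 6 for matrix genes, 2 to 5 for epithelial and mesenchymal genes, 1 to 5 for immediate early genes, 0 to 3 for cholesterol synthesis genes, 1 to 7 for pluripotency genes, 2 to 4 for Dlk1-Dio3 genes and 1 to 4 for mitochondrial genes. With all 12 libraries in 1 fit, 5 YAP and SRF targets and 3 matrix genes were called. With the block 8 cholesterol genes were called. Mitochondrial genes called lower numbered 4 by DESeq2, 9 with no filter, 3 with posterior mean counts, 10 with the block, and 0 when those genes were left out, as that setting removes them. Leaving out a library leaves fewer samples in the fit, and the cause of the other changes was not tested. With all 12 libraries in 1 fit 31 of the 117 lost their call. The interaction gave 2473 calls, 2542 with the replicate block and 1763 to 2426 with 1 library left out.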

Other observations

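Some called genes belong to groups not described above. Nes, an intermediate filament gene of neural progenitors, had 72, 70.9 and 74 CPM in controls A, B and C and 96.4, 95.7 and 94.6 CPM with the deletion (log2 fold change 0.40 ± 0.04 SE, n = 3 per group), and with Vim made up the 2 of 12 neural progenitor genes that rose. Of 17 neuronal genes Nefl, a neurofilament gene, rose (0.33 ± 0.06). The p53 targets Plk2 (0.35 ± 0.05) and Perp (0.34 ± 0.06) rose, 2 of 22, while Trp53 (0.03 ± 0.03) and Cdkn1a (-0.05 ± 0.06) were not called. Of 28 cell cycle genes Ccne1 rose (0.21 ± 0.04). With the block 4 cell cycle genes rose, 2 neuronal genes rose, and 2 p53 targets rose and 3 fell. Among all genes tested 1.37% rose and 0.544% fell without the block, and 3.2% and 3.1% with it. The calls of Nefl, Plk2, Perp and Ccne1 were lost without control library B and without deletion library B. Germline genes, which ESCs express at low levels, had a median of -0.27 with 0 of 21 called by edgeR, 10 of them with every deletion library below every control (11.2% of all genes tested), and 2 lower with the block (3.1% of all genes tested).

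Genes of epithelial junctions were among the 36 that rose in both cell types. These were picked after their values were seen. Dsp, desmoplakin, rose by 0.47 in ESCs and by 1.02 in iNs, Ppl, periplakin, by 0.44 and 1.23, Pkp2, plakophilin 2, by 0.24 and 0.55, and Cgn, cingulin, by 0.35 and 0.84. Their mean levels in control and deletion iNs were low, at 4.19 and 8.58 CPM for Dsp and 0.9 and 2.15 CPM for Ppl. Pkp2 had 4.93 and 7.23 CPM there, and Cgn 6.18 and 11.1 CPM. In ESCs the calls of Ppl, Pkp2 and Cgn were lost without control library B and without deletion library B, and that of Dsp was kept.

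Gm9661, the gene model beyond the deleted interval, had 0 counts in each of the 3 control iN libraries and 265, 260 and 249 counts in deletion iN libraries A, B and C. It was the only one of 17 genes tested within 1 Mb of the interval that was higher in ESCs.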
